A study of Mus musculus with 4 samples.

Results

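The genes described here encode 10 enzymes that build purine and pyrimidine nucleotides from small precursors: Ppat, Gart, Pfas, Paics, Adsl, Atic, Impdh2, Cad, Umps and Ctps. They were taken by gene name, after matching the Ensembl identifiers of the count table to GENCODE M21 symbols, and all 10 were found among the 26561 genes of the table. The libraries come from MC38, a mouse colon tumour line that the labels call wild type and epithelial. The group named IR was given X-rays as one fraction of 30 Gy, with harvest 60 h later. The group named nonIR received no irradiation, and the sources used here give no harvest time for it, so time in culture and irradiation cannot be told apart. Each group holds 2 libraries, and the labels do not say whether they came from separate cultures, so every p-value rests on a library-to-library spread that may be only technical.

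Nucleotides are made by a de novo route and recovered by salvage. The purine ring is assembled step by step on phosphoribosyl pyrophosphate (PRPP), a phosphorylated ribose, until inosine monophosphate (IMP) is reached, and IMP is then turned into AMP or GMP. In the pyrimidine route the ring is made first and joined to PRPP afterwards, giving UMP and later CTP. Both routes draw on glutamine and aspartate, and the purine route also draws on formyl groups carried by folate. Growing tumour cells rely on these routes for RNA and DNA, and the transcription factor MYC is known to activate many of the genes.

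Totals ran from 26059171 to 29180110 counts in the IR libraries and from 27995608 to 29881492 counts in the nonIR libraries. Libraries of one group differed by more than sampling noise, with a mean chi-square per gene of 4.73 in IR and 3.38 in nonIR, so each was kept as its own sample. Of the epithelial markers examined, Epcam had 0 and 1 counts in IR and 0 and 0 in nonIR, and Krt18 had 2 and 3 in IR and 0 and 0 in nonIR, whereas Cdh1 had 2173 and 1798 in IR and 998 and 1009 in nonIR. Krt8 had 30 and 20 counts in IR and 6 and 3 in nonIR, Krt19 had 46 and 31 in IR and 50 and 53 in nonIR, and Vil1 had 5 and 4 in IR and 3 and 1 in nonIR. These 6 epithelial markers summed to 75.8 and 70.0 CPM in IR, against 38.5 and 36.5 CPM in nonIR, almost all of it Cdh1, and Krt8 and Cdh1 rose. Of the markers of the labelled epithelial type, Epcam, the keratins and Vil1 thus averaged at most 1.82 CPM in either group, while Cdh1 averaged 70.4 CPM in IR and 35.4 CPM in nonIR. The 7 fibroblast markers summed to 1779 and 1797 CPM (counts per 1e+06 of the scaled library size) in IR, against 1205 and 1200 CPM in nonIR, and 6 of them rose. The 7 immune markers summed to 8.20 and 8.02 CPM in IR, against 6.19 and 4.90 CPM in nonIR, and the 4 endothelial markers to 6.22 and 6.56 CPM, against 2.58 and 1.92 CPM. Cd3e, Adgre1 and Kdr were at 0 in both nonIR libraries. The part of these markers in the results below was not tested.

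Sequence just upstream of 4 members is shown first, picked after their values were seen. Cad and Ctps fell to about the same extent, Umps did not pass the test, and Atic fell less. Atic was also picked for a MYC-type E-box beside its start. The part of these sequences in the changes was not tested. Each line holds the 250 bases before the RefSeq start, 5′ to 3′ on the gene's strand (GRCm38.p6). Capitals mark 4 motifs read on both strands, namely CACGTG (E-box), GCATGCG (core of the NRF1 motif), GGGCGG (SP1) and CCAAT (NFY), and no match of one motif overlapped a match of another in the members' windows.
Cad, chr5:31054530-31054779, plus strand: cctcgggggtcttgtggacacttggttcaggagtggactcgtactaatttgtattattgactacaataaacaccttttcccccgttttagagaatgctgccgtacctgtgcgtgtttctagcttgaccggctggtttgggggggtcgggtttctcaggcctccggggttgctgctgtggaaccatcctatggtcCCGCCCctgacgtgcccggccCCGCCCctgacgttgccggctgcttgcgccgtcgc
Ctps, chr4:120570277-120570526, minus strand: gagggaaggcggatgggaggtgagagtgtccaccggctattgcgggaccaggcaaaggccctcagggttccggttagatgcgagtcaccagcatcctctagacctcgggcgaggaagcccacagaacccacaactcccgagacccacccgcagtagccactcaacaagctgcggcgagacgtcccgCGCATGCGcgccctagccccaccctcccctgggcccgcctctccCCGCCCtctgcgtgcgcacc
Umps, chr16:33967039-33967288, minus strand: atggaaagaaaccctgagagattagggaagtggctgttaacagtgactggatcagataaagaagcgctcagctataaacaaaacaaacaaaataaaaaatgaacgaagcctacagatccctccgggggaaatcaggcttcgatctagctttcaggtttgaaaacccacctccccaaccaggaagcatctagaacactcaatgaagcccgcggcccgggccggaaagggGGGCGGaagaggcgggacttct
Atic, chr1:71556906-71557155, plus strand: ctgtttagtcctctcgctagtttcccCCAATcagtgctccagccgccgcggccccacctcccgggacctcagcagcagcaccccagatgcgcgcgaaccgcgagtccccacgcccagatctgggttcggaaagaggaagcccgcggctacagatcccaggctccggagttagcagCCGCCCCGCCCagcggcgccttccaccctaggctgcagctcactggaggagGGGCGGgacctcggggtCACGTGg
Windows of 250 bases before to 50 after the start were found for 9 members. GGGCGG occurred in 9 of 9, against 35.7% of the 32851 windows of the RefSeq table. The members' windows held from 53% (Umps) to 69.7% (Atic) G and C. The windows of the RefSeq table were not matched to them for base content or for expression. CACGTG occurred in 3 of 9 (Paics, Atic and Impdh2), against 7.15% of all windows. GCATGCG occurred in 2 (Ppat and Ctps), against 3.58%, and CCAAT in 4 (Gart, Paics, Atic and Impdh2), against 37.4%. In Atic the E-box begins 7 bases before the RefSeq start. These are matches of letters and not measured binding sites. The E-box was found both in Paics, which rose, and in Atic and Impdh2, which fell. In Paics it begins 203 bases before the RefSeq start, within the Ppat gene. In Impdh2 it begins 110 bases before the RefSeq start, which lies 150 bases past the GENCODE start, so that match falls inside the annotated gene.

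Transcripts of 8 of the 10 enzymes fell in IR cells, 1 rose and 1 did not pass the test. The decreases ran from 1.11-fold for Impdh2 to 1.98-fold for Ctps, and the increase, in Paics, was 1.43-fold. Every member passed the filter on low counts. The comparison asks how the cells' own transcripts stood after the dose. A gene is said here to have risen or fallen when edgeR's quasi-likelihood test gave a Benjamini-Hochberg adjusted p under 0.05 over the 15298 genes tested. By that rule 60.7% of all tested genes changed, 30.3% falling and 30.4% rising. Among the 4839 genes with a mean of at least 50 CPM, a level chosen after the values were seen because every member lies above it, 48.4% fell and 31.2% rose. The median log2 fold change was -0.40 over the members and 0.01 over all tested genes. For 8 members both IR libraries lay below both nonIR libraries, a pattern found in 38.7% of tested genes, and for 1 they lay above, found in 39.7%. CPM are shares of a library, and each library began from the same mass of RNA, so a smaller share cannot be told apart from a change in the total RNA of a cell. In bulk samples fewer cells of a type and less RNA per cell also cannot be told apart.

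**Figure D1:**
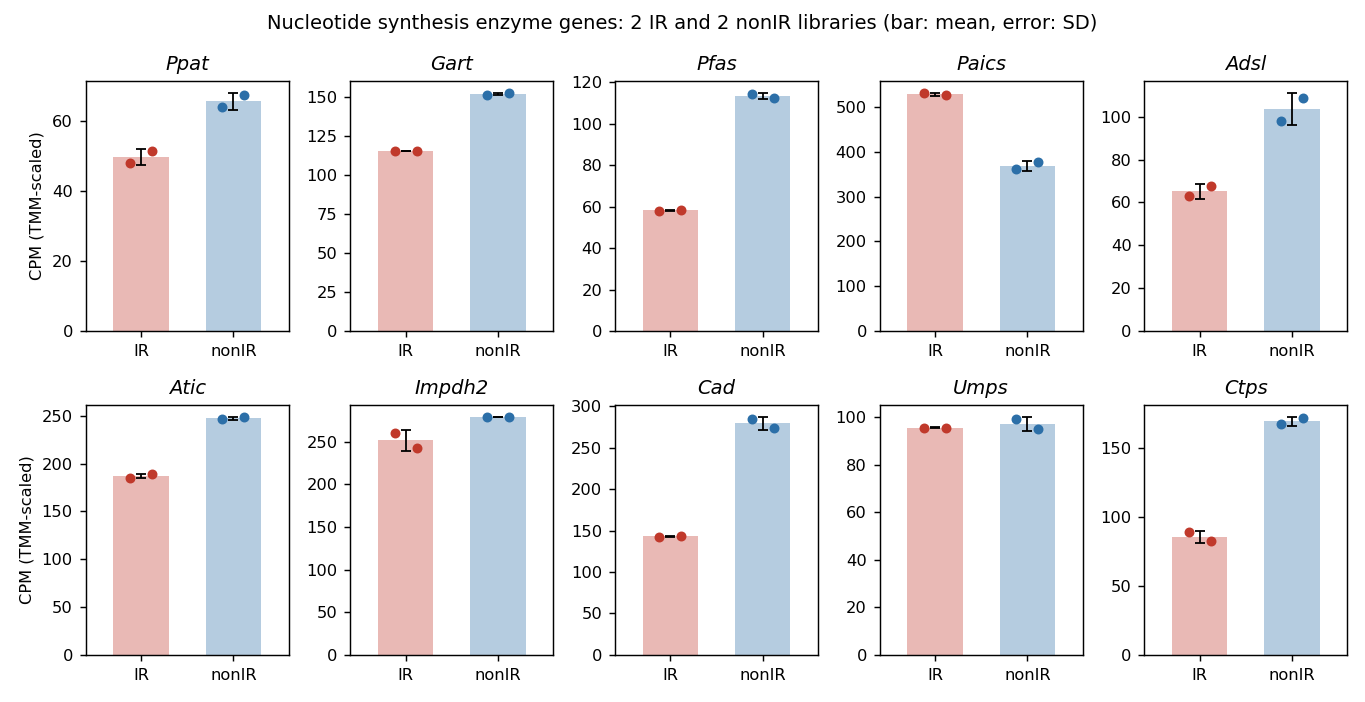
Level of each of the 10 enzyme genes (CPM, linear axis from 0) in the 2 IR and 2 nonIR libraries, with points for libraries, bars for means and error bars for SD. The IR points lie below the nonIR points in 8 panels, above them in the Paics panel and level with them in the Umps panel.

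The purine ring genes are given in the order of the route. Ppat (ENSMUSG00000029246, chromosome 5, 76913249 to 76951578, GRCm38, minus strand) encodes the amidotransferase of the committed step, which places the first nitrogen on PRPP. It had 48.0 and 51.5 CPM in the IR libraries, against 64.0 and 67.3 CPM in the nonIR libraries. Both IR values lie below both nonIR values, and the log2 fold change was -0.40 (SE 0.06, adjusted p = 8.06e-10). Gart (ENSMUSG00000022962, chromosome 16, 91621186 to 91646952) encodes a trifunctional enzyme of the early ring steps that uses a folate formyl group. Its level was 115.2 and 115.0 CPM in IR, against 151.0 and 152.1 CPM in nonIR. The groups are apart by far more than either pair differs, and the log2 fold change was -0.40 (SE 0.05, adjusted p = 1.46e-17). Pfas (ENSMUSG00000020899, chromosome 11, 68985697 to 69008460) encodes the glutamine-using synthase that acts between steps of the Gart enzyme. Pfas was at 58.0 and 58.5 CPM in IR cells, against 114.4 and 112.2 CPM in nonIR cells, the largest decrease among the ring genes (log2 fold change -0.96, SE 0.05, adjusted p = 6.54e-68).

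Paics (ENSMUSG00000029247, chromosome 5, 76951307 to 76967509, plus strand), whose product carries out a carboxylation and the attachment of aspartate, went the other way. Its level was 530 and 526 CPM in the IR libraries, against 361 and 377 CPM in the nonIR libraries. Both IR libraries lie above both nonIR libraries, and the log2 fold change was 0.52 (SE 0.03, adjusted p = 4.99e-63). Adsl (ENSMUSG00000022407, chromosome 15, 80948490 to 80970946) encodes the lyase that removes fumarate from the Paics product and that acts again on the way to AMP. Adsl had 62.8 and 67.5 CPM in IR and 98.1 and 108.8 CPM in nonIR. Its nonIR libraries were the more spread pair, yet the groups do not overlap (log2 fold change -0.67, SE 0.05, adjusted p = 9.71e-34). Atic (ENSMUSG00000026192, chromosome 1, 71557150 to 71579631) encodes the enzyme that adds the last formyl group and closes the ring to IMP. Atic stood at 185.2 and 188.7 CPM in IR, against 246.2 and 248.5 CPM in nonIR, lower in both IR libraries (log2 fold change -0.40, SE 0.04, adjusted p = 2.65e-26). Ppat, Gart and Atic, which act at the entry, early and at the end of the ring, thus share fold changes of -0.40, while Pfas and Adsl had larger decreases.

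Ppat and Paics lie head to head on chromosome 5. Their starts are 271 bases apart on opposite strands, and their exons overlap by 272 bases, so that the starts reach into each other's first exon. The sources used here do not say whether counting used strand, and without strand reads in that stretch could not be assigned to one gene. Paics had 15782 and 13955 counts in the IR libraries and 9925 and 11006 in the nonIR libraries, while Ppat had 1430 and 1366 in IR and 1758 and 1966 in nonIR. The ratio of Paics to Ppat per kb of exon was 15.5 and 14.4 in IR, against 7.95 and 7.89 in nonIR. A ratio within a library does not depend on how libraries are scaled, and this one was 1.89 times as high in IR. It was chosen after the values were seen and sets the member that rose against a member that fell, so it adds no separate result. Gart also faces a neighbour, Son, an RNA-binding protein gene whose start is 554 bases away. Son had 575 and 561 CPM in IR and 561 and 578 CPM in nonIR, and it did not pass (log2 fold change 0.00, adjusted p = 0.931), a value that took either sign with the scaling. The antisense gene Gm15829, whose start is 799 bases from that of Umps, had 11 and 1 counts in IR and 1 and 8 in nonIR and was too low to test. Exons of Gart, Umps and Impdh2 also overlap another annotated gene on the other strand, with at most 2.72% as many counts.

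**Figure D2:**
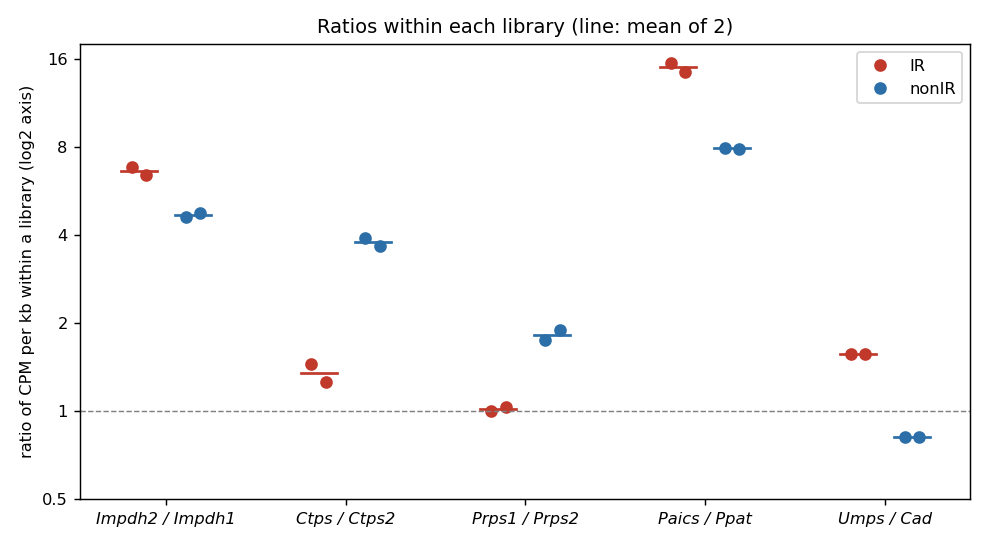
Ratio of levels (CPM per kb of exon, log2 axis) between pairs of genes within each library, IR left of nonIR, with points for the 2 libraries of a group and a line for their mean. Paics over Ppat was 15.5 and 14.4 in IR, against 7.95 and 7.89 in nonIR, and Ctps over Ctps2 was 1.45 and 1.26 in IR, against 3.90 and 3.68 in nonIR. The pairs Paics and Ppat, and Umps and Cad, were chosen after the values were seen.

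Impdh2 (ENSMUSG00000062867, chromosome 9, 108560286 to 108565584) encodes the IMP dehydrogenase that limits the rate of GMP synthesis. It had 260 and 242 CPM in the IR libraries, against 278 and 279 CPM in the nonIR libraries. The groups do not overlap, but the gap to the upper IR library is about the same as that between the IR libraries themselves. The log2 fold change of -0.15 (SE 0.04, adjusted p = 5.84e-05) was the smallest among members that passed. It shrank to -0.08 (adjusted p = 0.0437) with upper quartile scaling and to -0.09 (adjusted p = 0.0177) with total counts, and over all 12 alternatives it ran from -0.21 to -0.08. Impdh1, the paralog, fell further, with 40.7 and 40.6 CPM in IR and 64.8 and 62.8 CPM in nonIR (log2 fold change -0.65, SE 0.07, adjusted p = 1.35e-21). The ratio of Impdh2 to Impdh1 per kb was 6.84 and 6.40 in IR, against 4.60 and 4.76 in nonIR. An exact permutation test of 2 libraries against 2 cannot give a p below 0.33, so these ratios are given without a test.

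The pyrimidine genes divided. Cad (ENSMUSG00000013629, chromosome 5, 31054780 to 31078479) encodes the large protein that joins carbamoyl phosphate synthetase, aspartate transcarbamylase and dihydroorotase, and its synthetase step controls the route. Cad had 143 and 144 CPM in the IR libraries, against 285 and 274 CPM in the nonIR libraries. The nonIR pair differed by more than the IR pair, and both lay far above it (log2 fold change -0.97, SE 0.04, adjusted p = 3.66e-139). Umps (ENSMUSG00000022814, chromosome 16, 33954782 to 33967038, minus strand), whose product turns orotate into UMP, had 95.3 and 95.6 CPM in IR and 99.3 and 95.1 CPM in nonIR. Its groups overlap, and the log2 fold change of -0.03 (SE 0.05, adjusted p = 0.695) turned positive under 3 alternatives, up to 0.05. The ratio of Umps to Cad per kb, chosen after the values were seen, was 1.57 and 1.56 in IR, against 0.817 and 0.815 in nonIR, so these genes of one route changed unequally.

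Ctps (ENSMUSG00000028633, chromosome 4, 120539868 to 120570276, minus strand) encodes a CTP synthase, which aminates UTP with glutamine. It had 88.8 and 82.6 CPM in the IR libraries, against 167 and 172 CPM in the nonIR libraries. All IR values lie well below, with the largest decrease among the members (log2 fold change -0.98, SE 0.05, adjusted p = 2.83e-95). The second CTP synthase gene, Ctps2, rose, with 87.4 and 93.3 CPM in IR and 61.1 and 66.5 CPM in nonIR (log2 fold change 0.50, SE 0.06, adjusted p = 1.08e-18). Per kb of exon, Ctps exceeded Ctps2 by a ratio of 1.45 and 1.26 in IR, against 3.90 and 3.68 in nonIR. Ctps remained the higher of the pair per kb in every library, and the ratio was nearer 1 in IR.

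**Figure D3:**
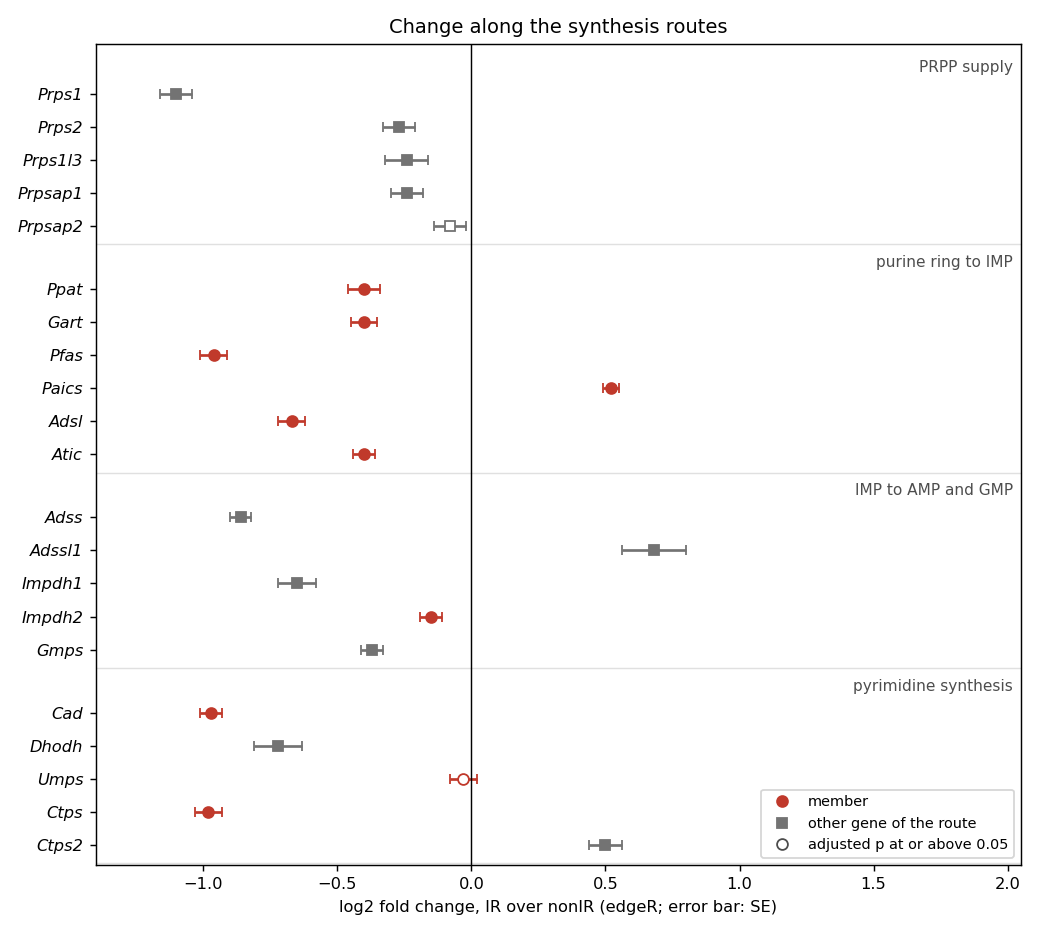
Log2 fold change (IR over nonIR, error bar SE) of the members (red circles) and of the other genes of the same routes (grey squares), grouped by step, with open symbols for adjusted p at or above 0.05. Most symbols lie left of 0, and Paics at 0.52, Adssl1 at 0.68 and Ctps2 at 0.50 lie right of it.

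The other 11 genes of these routes, listed with the earlier results of these data known, were also mostly lower: 8 fell, 2 rose and 1 did not pass, with a median log2 fold change of -0.27. The shares over all tested genes were 30.3% falling and 30.4% rising. Dhodh, the mitochondrial dehydrogenase between the Cad and Umps steps, had 26.2 and 22.9 CPM in IR and 39.2 and 41.6 CPM in nonIR (log2 fold change -0.72, SE 0.09, adjusted p = 4.09e-16). On the AMP side, Adss, the adenylosuccinate synthase of most tissues, had 139.7 and 139.0 CPM in IR and 248.9 and 257.5 CPM in nonIR (log2 fold change -0.86, adjusted p = 2.24e-106). Adssl1, its muscle-type paralog, rose, with 21.9 and 20.5 CPM in IR and 13.0 and 13.4 CPM in nonIR (log2 fold change 0.68, adjusted p = 2.10e-08). On the GMP side, Gmps, which aminates XMP to GMP, had 167 and 158 CPM in IR and 205 and 214 CPM in nonIR (log2 fold change -0.37, adjusted p = 1.07e-19). Among the genes for PRPP, Prps1 fell most, with 36.8 and 37.3 CPM in IR and 77.7 and 81.7 CPM in nonIR (log2 fold change -1.10, SE 0.06, adjusted p = 3.20e-65). Prps2, its paralog, fell by 0.27 on the log2 scale, and the ratio of Prps1 to Prps2 per kb was 0.997 and 1.03 in IR, against 1.75 and 1.89 in nonIR. Prpsap1, which encodes a protein that associates with the synthases, fell by 0.24, while Prpsap2 did not pass (-0.08, adjusted p = 0.264). Prps1l3, a Prps1-like gene, fell by 0.24 but did not pass without IR replicate 2 (adjusted p = 0.198), its exons overlap Mipol1, and reads may be shared with Prps1.

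Levels were compared between genes per kb of merged exon. Paics was the most abundant member in both groups, with 168 ± 1.01 CPM per kb in IR and 118 ± 3.57 in nonIR (SD, n = 2 each). Impdh2 was next, with 81.7 ± 4.07 CPM per kb in IR and 90.6 ± 0.173 in nonIR. At the low end, Pfas had 7.34 ± 0.0527 CPM per kb in IR and 14.3 ± 0.192 in nonIR, just under Ppat with 11.3 ± 0.547 and 14.9 ± 0.539. In IR the order from the top was Paics, Impdh2, Umps, Ctps, Atic, Gart, Cad, Adsl, Ppat and Pfas, and in nonIR it was Paics, Impdh2, Ctps, Cad, Atic, Gart, Umps, Adsl, Ppat and Pfas. Neighbours in the order were apart in both groups, except Adsl and Ppat, whose libraries overlapped in IR. Umps had rank 3 in IR and 7 in nonIR, and Cad had rank 7 in IR and 4 in nonIR. These differences in rank depend on the length used: with the longest transcript, Umps had rank 6 in IR and 7 in nonIR, and Cad had rank 7 in IR and 6 in nonIR. With that length Atic had rank 3 in both groups, and Impdh2 stood above Paics in nonIR with overlapping libraries. Ppat was then the lowest member in nonIR, with 15.8 ± 0.573 CPM per kb, under Pfas with 17.8 ± 0.239, while Pfas stayed the lowest in IR. Summed over the 10 members, the level was 1586 and 1571 CPM in IR, against 1865 and 1886 CPM in nonIR, a ratio of 0.842. Paics holds the largest share and is the only member that rose, so leaving it out must lower the ratio, which was then 0.698.

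**Figure D4:**
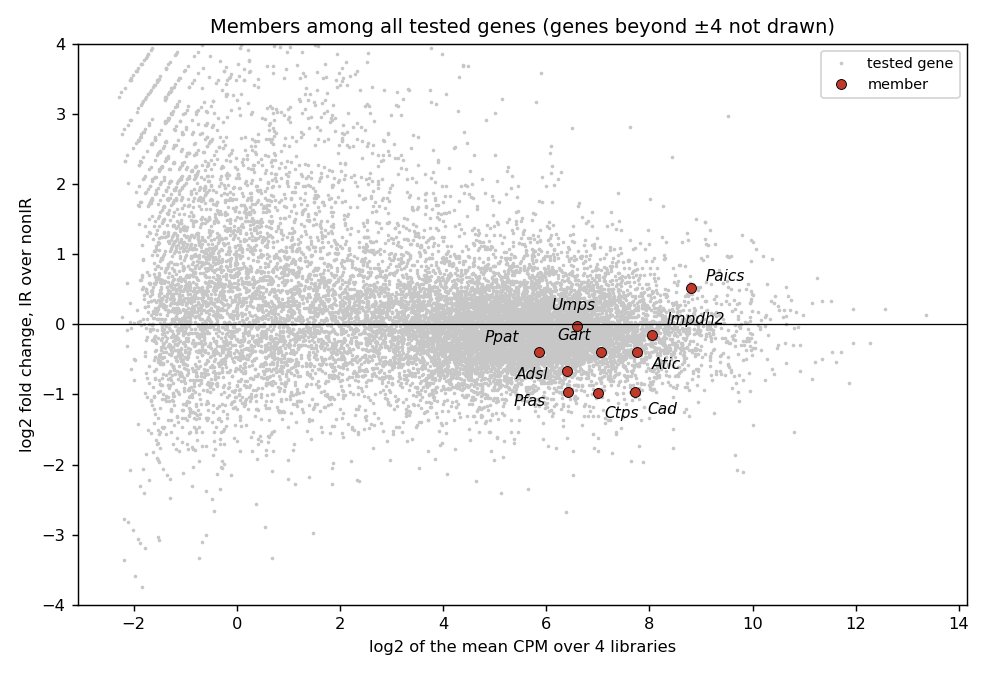
Log2 fold change (IR over nonIR) against the log2 of the mean CPM over the 4 libraries for the tested genes (grey) and the 10 members (red), with 301 genes beyond the axis not drawn. The members lie among the abundant genes, between -0.98 and 0.52.

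Most genes for the supply of precursors fell. Over all tested genes 30.3% fell and 30.4% rose, and among those with a mean of at least 50 CPM 48.4% fell and 31.2% rose. Of 8 tested genes that make or carry the formyl groups used by the Gart and Atic enzymes, 6 fell and 1 rose, with a median log2 fold change of -0.93. That median was -0.70 with DESeq2, -0.71 with no filter on low counts and -1.14 with a filter at a mean of 1 CPM. Mthfd2, a mitochondrial folate dehydrogenase, had 22.4 and 22.8 CPM in IR, against 144 and 145 CPM in nonIR (log2 fold change -2.68, SE 0.06, adjusted p below 1e-300), and Mthfd1l, the mitochondrial formate-releasing synthetase, had 67.9 and 67.2 CPM in IR, against 236 and 245 CPM in nonIR (-1.83, SE 0.04, adjusted p below 1e-300). The one that rose was Aldh1l1, a formyl-folate dehydrogenase, from 64 and 87 counts in IR against 16 and 9 in nonIR, chosen after its values were seen. Of 10 tested genes for aspartate and glutamine supply, 8 fell and 1 rose (median -0.47). The median was -0.26 with DESeq2 and -0.27 with no filter on low counts, and 6 fell with upper quartile scaling. Asns, which makes asparagine from aspartate and glutamine, had 83.3 and 81.3 CPM in IR, against 241 and 246 CPM in nonIR (-1.57, SE 0.04, adjusted p = 3.81e-281), and Slc1a5, a glutamine transporter, fell (-0.95, SE 0.05, adjusted p = 5.44e-68). Glul, the glutamine synthetase gene that rose, had a log2 fold change of 0.48 and was chosen after its values were seen.

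Of 8 tested purine salvage genes 5 fell and 1 rose (median -0.18), and of 10 tested pyrimidine salvage genes 5 fell and 3 rose (median -0.36). Beside these counts, 30.3% of all tested genes fell and 30.4% rose. The purine salvage median was -0.11 with upper quartile scaling, and the pyrimidine salvage median was -0.66 with a filter at a mean of 1 CPM. Mtap, which recovers adenine from methylthioadenosine, had 137 and 129 CPM in IR, against 254 and 264 CPM in nonIR (log2 fold change -0.96, adjusted p = 1.46e-131), and Aprt, the adenine phosphoribosyltransferase, fell too (-0.70, SE 0.05, adjusted p = 2.56e-42). Upp1, uridine phosphorylase, had 146 and 191 counts in IR and 626 and 666 in nonIR (-1.92, SE 0.14, adjusted p = 2.34e-43), and Tk1, thymidine kinase, fell (-1.41, SE 0.05, adjusted p = 1.63e-204). Chosen after their values were seen, the remaining purine genes that fell were Hprt (-0.16), Dck (-0.27) and Adk (-0.21), and the remaining pyrimidine genes that fell were Uck2 (-0.70), Uckl1 (-0.69) and Cda (-0.76). The genes that rose, likewise chosen afterwards, were Ada (0.19, adjusted p = 0.0489) and Uck1, Tk2 and Upp2 (0.28, 0.30 and 1.35). Exons of Uckl1 overlap another gene with more counts. Pnp, also listed for purine salvage, had no row under that symbol. Gm49342, which overlaps its exons on the same strand, had 6266 counts over the 4 libraries. Ada lost its call without any one of the 4 libraries, and none of the 3 pyrimidine genes passed without IR replicate 1.

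The genes of nucleotide degradation had a median log2 fold change of 0.27, which was 0.63 with DESeq2, 0.62 with no filter on low counts and 0.43 without nonIR replicate 1. Of the 13 tested genes 7 rose and 5 fell, and 5 further genes in the table were too low to test. Among all tested genes 30.4% rose and 30.3% fell. Xdh, the xanthine dehydrogenase that forms urate in purine breakdown, had 394 and 409 CPM in IR, against 118 and 114 CPM in nonIR (log2 fold change 1.79, SE 0.04, adjusted p below 1e-300). Ampd3, an AMP deaminase, had 33.7 and 31.5 CPM in IR, against 8.44 and 8.12 CPM in nonIR (1.98, SE 0.11, adjusted p = 3.18e-65), although its exons overlap Rnf141 on the other strand, which holds 188% as many counts. Genes of the list that fell, chosen after their values were seen, were Nt5c (-0.69), Nt5m (-0.50), Gmpr2 (-0.29), Ampd2 (-0.21) and Nt5c3b (-0.17), and 3 of the list fell when IR replicate 2 was left out. Exons of Nt5m, Gmpr2 and Nt5c3b overlap another gene on the other strand with more counts, so their values are uncertain. Of 15 tested nucleotide kinase genes 10 fell and 3 rose (median -0.42). Cmpk2, a mitochondrial kinase known as an interferon-induced gene, had 441 and 413 counts in IR, against 20 and 7 in nonIR (4.98, SE 0.25, adjusted p = 8.92e-86). Ak4, a mitochondrial adenylate kinase, had 15.2 and 16.5 CPM in IR, against 41.1 and 41.4 CPM in nonIR (-1.38, SE 0.09, adjusted p = 4.20e-47), and the other genes that rose, chosen afterwards, were Ak1 (0.39) and Ak3 (0.38).

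**Figure D5:**
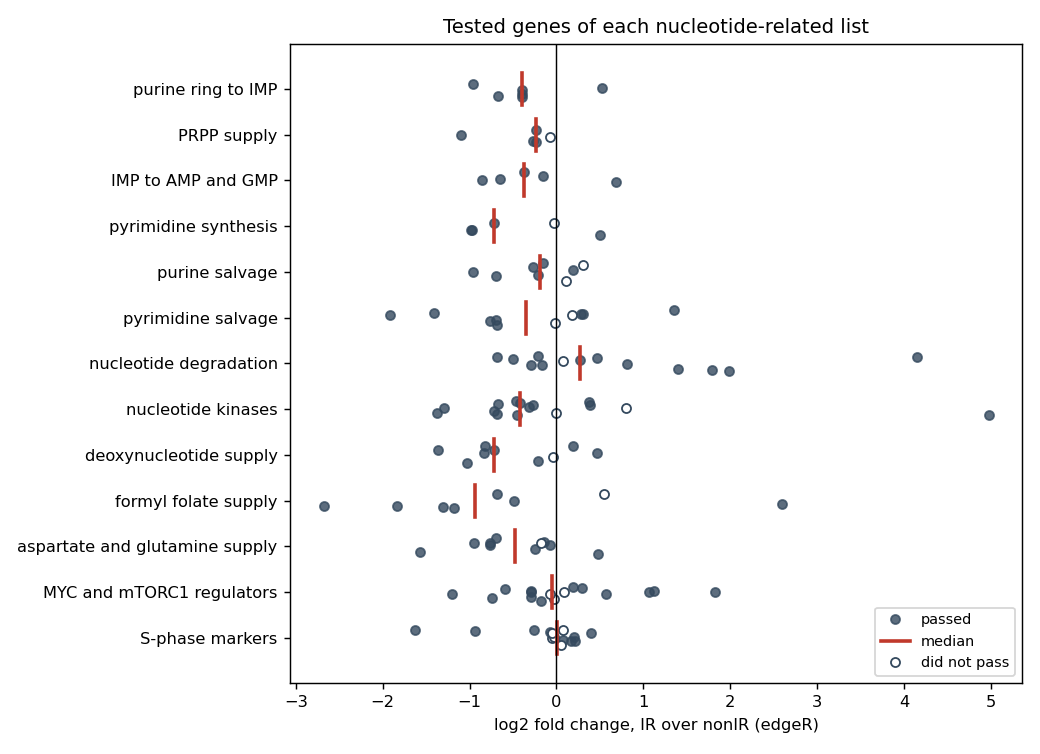
Log2 fold change (IR over nonIR) of the tested genes of the 13 nucleotide-related lists, with filled points for adjusted p under 0.05, open points for the rest and a red bar for the median. The medians run from -0.93 for formyl folate supply to 0.27 for nucleotide degradation. The formyl folate median was -0.70 with DESeq2, where pyrimidine synthesis and deoxynucleotide supply were lower at -0.73. It was -0.71 with no filter and -1.14 with a filter at a mean of 1 CPM. The degradation median was 0.63 with DESeq2, 0.62 with no filter and 0.43 without nonIR replicate 1.

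Of 9 tested genes for deoxynucleotides 6 fell and 2 rose (median -0.72), against 30.3% falling and 30.4% rising over all tested genes. Dctd, which deaminates dCMP, had 47.1 and 42.4 CPM in IR, against 112 and 117 CPM in nonIR (log2 fold change -1.36, SE 0.06, adjusted p = 1.67e-124), and Dctpp1, a dCTP pyrophosphatase, fell (-1.03, SE 0.13, adjusted p = 4.69e-14). Rrm2b, the stress-induced ribonucleotide reductase subunit, was among those that rose (0.47) and was chosen after its values were seen. Markers of S phase did not share one direction, with 5 of 14 higher and 4 lower and a median of 0.01 that ran from -0.02 to 0.08 over the 12 alternatives. Summed, they stood at 4312 and 4339 CPM in IR, against 4269 and 4329 CPM in nonIR. Ccne1 and Ccne2, the cyclin E genes, fell (-1.63, adjusted p = 1.97e-24, and -0.94, adjusted p = 1.24e-25), as did Pcna (-0.26) and Mki67 (-0.07), while Cdt1 (0.40), Mcm2 (0.08), Mcm3 (0.17), Mcm4 (0.21) and Mcm7 (0.20) rose. All but the cyclin E genes were chosen after their values were seen, and exons of Ccne2 overlap Ints8 on the other strand, which holds 127% as many counts.

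Among 16 tested regulators, mostly of MYC and of the kinase complex mTORC1, 7 fell and 6 rose, against 30.3% falling and 30.4% rising over all tested genes. Their median of -0.05 was 0.02 with upper quartile scaling and 0.01 with total counts. Activators and inhibitors are pooled in this list, so its counts and median have no single direction. Myc had 99.7 and 90.6 CPM in IR, against 145 and 142 CPM in nonIR (log2 fold change -0.59, SE 0.05, adjusted p = 4.50e-34). Mxd4, an antagonist of MYC for its partner MAX, had 63.0 and 71.6 CPM in IR, against 18.4 and 19.6 CPM in nonIR (1.82, SE 0.08, adjusted p = 1.72e-118). Chosen after their values were seen, Mxd1 (1.12) and Mnt (1.06) of the same list rose, Mxd3 (-0.74) fell and Mxi1 (-0.03) did not pass. Exons of Mxd3 overlap Prelid1 on the other strand, which holds more counts. Of the mTORC1 genes, likewise chosen afterwards, Rptor (-0.18), Rps6kb1 (-0.29) and Rheb (-0.29) fell, and Mtor (-0.07) did not pass. The mTORC1 inhibitors Tsc1 (0.29) and Tsc2 (0.57) rose, though exons of Tsc2 overlap Pkd1 on the other strand, which holds more counts. Atf4, a stress-response factor that activates amino acid and folate genes such as Asns and Mthfd2, had 204 and 201 CPM in IR, against 473 and 460 CPM in nonIR (-1.20, SE 0.03, adjusted p = 2.95e-274). Their part in the changes of the synthesis genes was not tested.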

How the data were processed

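Messenger RNA libraries from MC38 cells were used, 2 irradiated and 2 not. The authors deposited raw counts, which are whole numbers for every Ensembl gene in each library. HISAT2, HISAT, HTSeq, DESeq2 and the mm10 build are named in the submitters' processing notes, without versions or roles; the annotation release, the strand setting and the handling of multi-mapping reads are not stated there. Groups and replicate numbers follow the sample titles; the description of nonIR replicate 2 carries the number of the other nonIR library, and its title was followed.

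Symbols, coordinates and exon lengths come from GENCODE M21 (GRCm38), which need not be the release used for counting, and 189 genes had no symbol. Counts were tested with edgeR 4.0.16 in R 4.3.3: TMM, filterByExpr by group, robust glmQLFit and glmQLFTest with irradiation as the one term, adjusted by Benjamini-Hochberg over 15298 genes. SEs were obtained from the F statistic, as the size of the log2 fold change over its root. For 13772 genes the prior degrees of freedom were infinite, so their spread came from the fitted trend. CPM are counts per 1e+06 of the TMM-scaled library size. DESeq2 1.42.0, other scalings and filters, a replicate block and leaving out each library were the alternatives. The pipeline was tested on simulated data. Promoter windows are RefSeq's.

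The members and the 13 lists were chosen with earlier results of these data known. Named genes are the members, the tested genes of the 4 synthesis lists, the 2 most changed genes past the threshold of each other list at a mean of at least 5 CPM, Myc, and genes starting within 1000 bases of a member on the other strand. Any further gene is marked in the text as picked afterwards.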

Additional observations from a re-analysis of the deposited data

How the results depend on the processing

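Under each of the 12 alternatives, 8 members were lower and 1 was higher, and 9 members kept their direction and their side of the threshold. Umps, which did not pass in any, had log2 fold changes of 0.05 with upper quartile scaling, 0.03 with total counts and 0.01 with a filter at a mean of 1 CPM. Son had 0.07, 0.06 and 0.03 there, 0.00 with RLE factors and 0.01 without nonIR replicate 2 and without IR replicate 2 (-0.04 to 0.01 over the fits that left out a library); with upper quartile scaling it passed (adjusted p = 0.0251, over all its alternatives up to 0.943). The cause was not tested.

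The replicate numbers are shared between groups, but nothing in the labels ties them, and same-numbered deviations had a correlation of -0.00415 over tested genes. With the replicate block, 8 members were lower and 1 higher, and 4519 genes fell and 4507 rose over all genes. Purine salvage genes that rose numbered 0 with the block, with DESeq2 and with no filter, and 0 to 0 over the fits that left out a library. Over those fits, pyrimidine salvage genes that rose numbered 0 to 2 and degradation genes that fell 3 to 5. A fit that leaves a group with 1 library assumes that it varies like the others.

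With the longest transcript as length, Impdh2 over Impdh1 was 8.65 in IR and 6.12 in nonIR, Ctps over Ctps2 was 1.18 and 3.30, Prps1 over Prps2 was 0.984 in IR, and the highest member stood 9.5 times above the lowest in nonIR. In windows of 100 bases before to 50 after the start, 1 member had the E-box. At these depths every member was tested, and with 2 libraries per group the spread is poorly known.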
